A study of Rattus norvegicus with 11 samples.

Results

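Straight proximal tubule cells of the rat kidney, named PST by the authors, were described from droplet single-cell RNA sequencing of 11 male ZSF1 rats. A cell belonged to this type when its deposited name was PST and nothing else, so that the joint name PCT/PST was left out, and 8032 of 114615 cells (7.01%) qualified. The groups were 3 obese rats given enalapril in their drinking water, 4 obese rats given the vehicle, and 4 lean rats as controls. Of the PST cells, 2797 came from enalapril-treated obese rats, 4187 from obese rats and 1048 from lean rats. All rats carried the same genotype label, ZSF1-LeprfaLeprcp/Crl, so the labels separate obese from lean rats by phenotype. The rats were 12 weeks old on arrival, and the labels give neither the age at death nor the length of treatment. Enalapril was adjusted every week to the body mass of the rat and the mean water intake of its cage, and no achieved dose is given. The treatment label of the lean rats is none, with no word on whether they drank the vehicle. Each kidney was perfused, digested, and cleared of debris and dead cells, and the labels give 10000 cells loaded. More cells than that were deposited for lean rat 1 (11148) and for obese rats 1, 3 and 4 (10844, 11540 and 18427). The same held for enalapril-treated obese rats 1 and 2 (17948 and 11452), and the other libraries had fewer. The labels do not explain the excess, and its part in the PST shares was not tested.

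The proximal tubule takes back most of the filtered glucose, amino acids, phosphate and bicarbonate. Its first stretch is convoluted (PCT here) and its last is straight (PST), running from the inner cortex into the outer medulla, where it passes into the descending thin limb (DTL). The straight segment secretes organic anions and cations, reclaims the glucose that escapes upstream, and is known as a part of the nephron that is sensitive to low oxygen. Angiotensin II acts on proximal tubule transport, and enalapril inhibits the enzyme that forms it. The mitochondria-rich proximal tubule gives many mitochondrial transcripts. Slc22a7, an organic anion transporter, and Slc7a13, an amino acid transporter, mark straight tubule cells in rodents. Neither could be looked up, because the deposited table gives quality measures, scores, names and map positions for each cell but no gene values. The name PST is therefore the authors' and was not checked against markers.

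Total cells per library ranged from 4232 to 18427, and PST cells per library from 133 to 1507. The library of lean rat 2 stood apart. The median over its PST cells was 392 UMIs and 2.21% mitochondrial UMIs, whereas in the other 10 libraries the PST medians lay between 1409 and 2642 UMIs and between 5.11% and 27.9% mitochondrial UMIs. The PST shares of all, non-immune and proximal tubule cells, and the PST medians, are set against lean rats with and without this library. Of all cells, 2.86% had a barcode that also occurred in another library. For PST cells the share was 2.98% (239 cells), and 20 of them shared the barcode with a PST cell of another library. The labels name no batch. The library codes share a stem between lean rats 1 and 2, and another between lean rats 3 and 4. In the same way stems join obese rats 1 and 2, obese rats 3 and 4, and enalapril-treated obese rats 1 and 2. What a stem stands for is not given. Each falls within a single group, and its part in the differences was not tested.

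PST cells took up more of the kidney suspension in obese than in lean rats. They made up 12.3%, 8.61%, 6.39% and 8.18% of all cells in obese rats 1 to 4, against 3.09%, 3.14%, 2.51% and 5.84% in lean rats 1 to 4. The lowest obese rat lay above the highest lean rat. The exact 95% Clopper-Pearson interval, which covers counting error only, was 11.7% to 12.95% in obese rat 1 and 2.64% to 3.71% in lean rat 2, so counting was a small part of the spread between rats. The mean was 8.87% ± 2.49 in obese rats and 3.64% ± 1.49 in lean rats (SD, n = 4 each). In edgeR's quasi-likelihood test on cell numbers the PST log2 fold change was 1.28 ± 0.39 (SE, adjusted p = 0.0118). Without lean rat 2 it was 1.22 ± 0.45 (adjusted p = 0.0211). In this comparison 60% of the 20 types tested were called in either direction, and PST had the fifth highest log2 fold change. Immune cells moved with the groups, with 31.3%, 37.9%, 34.7% and 33.8% of the cells in obese rats 1 to 4, against 17.6%, 7.75%, 19.5% and 8.92% in lean rats 1 to 4. PST and PCT/PST together were 13.7% to 24.1% of all cells in obese rats and 11.9% to 23.7% in lean rats. For this merged type the log2 fold change was 0.30 (edgeR adjusted p = 0.449). It starts from a larger base, with a mean of 15.9% in lean rats against 3.64% for PST alone. More PST cells in the kidney, their better recovery from it and a shift between PST and other proximal tubule names cannot be told apart.

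Removing the immune cells from the total left a larger difference. PST cells were 17.9%, 13.9%, 9.79% and 12.4% of the non-immune cells in obese rats 1 to 4, against 3.75%, 3.41%, 3.11% and 6.42% in lean rats 1 to 4. No obese rat overlapped a lean rat. The log2 fold change was 1.69 ± 0.36 (SE, edgeR adjusted p = 0.00455), and 1.61 ± 0.42 without lean rat 2 (edgeR adjusted p = 0.00935). With PST and PCT/PST merged, a type with a larger base, it was 0.70 (edgeR adjusted p = 0.135). Of the 15 non-immune types 20% were called in either direction, namely PST, DTL and the distal convoluted tubule (DCT). PST and DTL were higher in obese rats, and DCT was lower (log2 fold change -1.65 ± 0.41, edgeR adjusted p = 0.0103). Cells of the DTL, the segment that follows the PST, had a log2 fold change of 2.00 ± 0.53 (edgeR adjusted p = 0.0110), the highest of the 15, followed by PST.

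Inside the proximal tubule the makeup differed as well. PST cells formed 25.5%, 24.2%, 18.4% and 14.5% of the proximal tubule cells (PCT, PCT/PST and PST together) in obese rats 1 to 4, against 6.49%, 8.51%, 6.25% and 9.70% in lean rats 1 to 4. The lowest obese rat again lay above the highest lean rat, and the means were 20.7% ± 5.14 in obese rats and 7.74% ± 1.66 in lean rats (SD, n = 4 each). For this share the log2 fold change was 1.42 ± 0.22 (SE, edgeR adjusted p = 0.00100), and 1.46 ± 0.25 without lean rat 2 (edgeR adjusted p = 0.00292). Across the compartments 23.5% of 17 types were called.

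The other proximal tubule cells did not pass the test in the same comparison. PCT cells were 52.3%, 51.1%, 60.6% and 57.4% of the proximal tubule in obese rats 1 to 4, against 70.2%, 67.7%, 65.5% and 60.7% in lean rats 1 to 4, with a log2 fold change of -0.25 ± 0.11 (edgeR adjusted p = 0.0754). Every obese rat had a lower PCT share than every lean rat. The joint type PCT/PST ranged from 21.0% to 28.1% in obese rats and from 23.3% to 29.6% in lean rats. Its log2 fold change was -0.13 ± 0.14 (edgeR adjusted p = 0.383). PST and PCT/PST together were 39.4% to 48.9% of the proximal tubule in obese rats and 29.8% to 39.3% in lean rats. For this merged type the log2 fold change of the share was 0.39 ± 0.12 (edgeR adjusted p = 0.0393), against 1.42 for PST alone. The proximal tubule as a whole was 34.6% to 56.5% of all cells in obese rats and 36.9% to 60.2% in lean rats, with wide overlap.

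**Figure D1:**
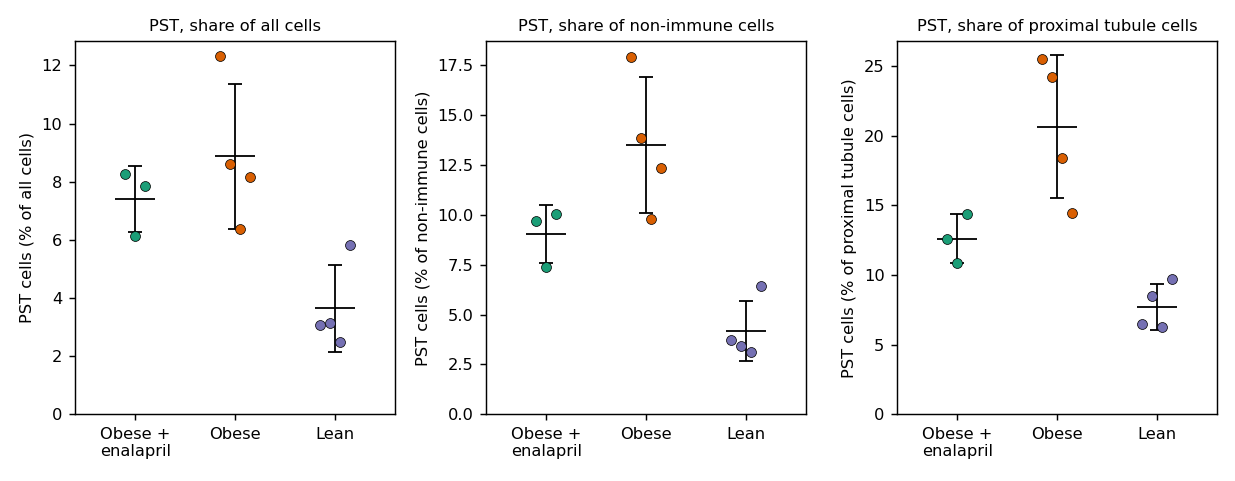
PST cells as a percent of all cells, of non-immune cells and of proximal tubule cells, with 1 point per rat, a line at the group mean and bars of 1 SD (3 enalapril-treated obese, 4 obese and 4 lean rats). Obese rats lie above lean rats in every panel, and enalapril-treated obese rats lie below obese rats in the proximal tubule panel, at 10.9% to 14.4% against 14.5% to 25.5%.

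Enalapril-treated obese rats had mean PST shares between those of the other groups, and their difference from obese rats did not pass the test. PST cells were 8.26%, 6.12% and 7.86% of all cells in enalapril-treated obese rats 1 to 3, within the range of the obese rats apart from rat 2. The mean was 7.41% ± 1.14 (SD, n = 3) in enalapril-treated obese rats and 8.87% ± 2.49 (SD, n = 4) in obese rats. The log2 fold change against obese rats was -0.26 ± 0.41 (SE, edgeR adjusted p = 0.670), in a comparison where 0% of 20 types were called. With each rat left out in turn it ranged from -0.39 to -0.059. It was -0.059 without obese rat 1 and -0.14 without treated rat 2.

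Among non-immune cells the PST share was 9.68%, 7.39% and 10.03% in enalapril-treated obese rats 1 to 3. Its log2 fold change against obese rats was -0.58 ± 0.38 (edgeR adjusted p = 0.569), again with 0% of 15 types called. Immune cells were 14.6%, 17.1% and 21.6% of the cells in enalapril-treated obese rats 1 to 3, all below the 31.3% to 37.9% of obese rats.

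Within the proximal tubule PST cells were 12.6%, 10.9% and 14.4% in enalapril-treated obese rats 1 to 3. The highest of these lay just under the lowest obese rat, at 14.5%. The log2 fold change against obese rats was -0.71 ± 0.23 (SE, edgeR adjusted p = 0.0680), where 5.88% of 17 types were called, so the difference missed the threshold. It passed under some settings: DESeq2 on the same counts gave -0.71 (adjusted p = 0.0262), and leaving out obese rat 4 gave -0.85 (edgeR adjusted p = 0.0448). PCT cells were 65.1%, 69.8% and 65.3% of the proximal tubule in enalapril-treated obese rats 1 to 3, above every obese rat, with a log2 fold change of 0.27 ± 0.11 (edgeR adjusted p = 0.158). PCT/PST cells were 22.3%, 19.3% and 20.4%, with a log2 fold change of -0.22 ± 0.15 against obese rats (edgeR adjusted p = 0.425).

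Set against lean rats, which also served the comparison above, the enalapril-treated obese rats had a higher PST share in part of the measures. The log2 fold change of the share of the proximal tubule was 0.71 ± 0.23 (SE, edgeR adjusted p = 0.0478), with 29.4% of 17 types called, and 0.75 ± 0.25 without lean rat 2 (edgeR adjusted p = 0.0426). All 3 treated rats lay above all 4 lean rats. Among non-immune cells it was 1.11 ± 0.37 (edgeR adjusted p = 0.0488), with 20% of 15 types called, and 1.03 ± 0.43 without lean rat 2 (edgeR adjusted p = 0.0962). Among all cells it was 1.02 ± 0.41 (edgeR adjusted p = 0.0846), with 15% of 20 types called, and 0.96 ± 0.47 without lean rat 2 (edgeR adjusted p = 0.126). With each rat left out in turn it was called in 1 of 11 fits, that without lean rat 4 (1.35, edgeR adjusted p = 0.0205), and the other fits gave 0.88 to 1.15. The calls for the proximal tubule and for non-immune cells lay close to the threshold and were lost under most settings, with each of them kept in 2 of 11 fits that left out 1 rat.

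The number of PST cells for each PCT cell gave the same order without a shared total. It came from the same cell numbers as the share of the proximal tubule, so it adds no separate support. The PST to PCT ratio was 0.193, 0.156 and 0.220 in enalapril-treated obese rats 1 to 3, against 0.487, 0.474, 0.304 and 0.252 in obese rats 1 to 4. In lean rats 1 to 4 it was 0.0925, 0.126, 0.0954 and 0.160. Obese rats lay above lean rats without overlap, at a mean log2 difference of 1.66 (exact two-sided permutation p = 0.0286, adjusted p = 0.129 over 9 ratio tests). The treated rats lay below the obese rats without overlap, at -0.96 (exact permutation p = 0.0571, adjusted p = 0.129), and overlapped the lean rats at 0.70 (exact permutation p = 0.114, adjusted p = 0.206). The raw values of 0.0286 and 0.0571 are the smallest that 4 against 4 and 3 against 4 rats can give, so these tests could not pass after adjustment. In limma over the 3 ratios, the PST to PCT difference was 1.66 ± 0.29 for obese against lean rats (adjusted p = 0.000315). For treated obese against obese rats it was -0.96 ± 0.31 (limma adjusted p = 0.0330). The limma values were adjusted over the 3 ratios of each contrast, not over the 9 ratio tests. The 3 ratios share their PST numbers, so they are not independent.

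Set against the joint type, PST cells numbered 0.564, 0.564 and 0.705 for each PCT/PST cell in enalapril-treated obese rats 1 to 3, against 1.15, 0.981, 0.878 and 0.514 in obese rats 1 to 4. In lean rats 1 to 4 the ratio was 0.278, 0.358, 0.221 and 0.328. The log2 difference was 1.54 for obese against lean rats (exact permutation p = 0.0286, adjusted p = 0.129). In limma over the 3 ratios it was 1.54 ± 0.28 (adjusted p = 0.000315). It was -0.48 for treated obese against obese rats, with overlap (exact permutation p = 0.229, adjusted p = 0.343). For treated obese against lean rats it was 1.06 (exact permutation p = 0.0571, adjusted p = 0.129; limma adjusted p = 0.0156).

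The ratio of PST to DTL cells behaved otherwise. It was 3.84, 2.52, 1.71 and 13.5 in obese rats 1 to 4, against 2.97, 5.78, 1.93 and 9 in lean rats 1 to 4, so that the range of the lean rats lay inside that of the obese rats. The log2 difference was -0.11 (exact permutation p = 0.886, adjusted p = 0.971), with an SE of 0.64 in limma, and 0.053 without lean rat 2 (exact permutation p = 0.914, adjusted p = 0.971). In enalapril-treated obese rats 1 to 3 it was 5.49, 3.07 and 3.54. At this spread a small difference of either sign was not detectable. Without lean rat 2 the log2 differences of obese against lean rats were 1.70 for PST to PCT and 1.63 for PST to PCT/PST (exact permutation, adjusted p = 0.171 each).

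**Figure D2:**
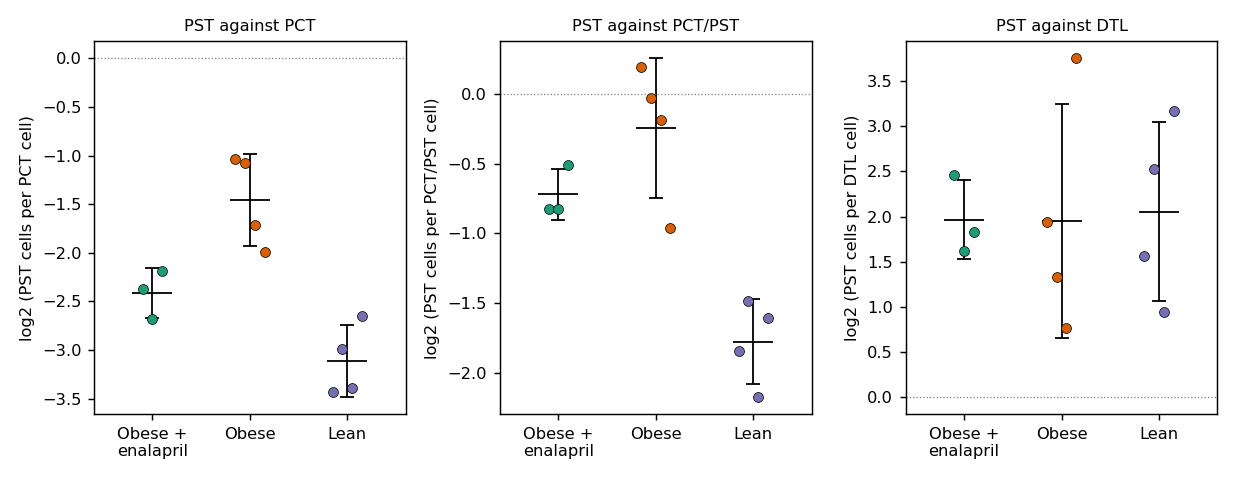
Log2 of the number of PST cells per PCT cell, per PCT/PST cell and per DTL cell, with 1 point per rat, a line at the group mean and bars of 1 SD, and a dotted line at equal numbers. Obese rats lie above lean rats for PCT and PCT/PST, and the groups overlap for DTL, where single rats range from 1.71 to 13.5 PST cells per DTL cell before the log2.

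The mitochondrial percent of the cells moved with the groups, so the PST share of the proximal tubule was also taken within bands of it. The median over non-immune cells was 18.3% ± 3.16 in obese rats and 8.75% ± 4.38 in lean rats (SD, n = 4 each). Rats with under 50 proximal tubule cells in a band were left out of it, which removed lean rat 2 from the bands from 15% upward.

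Above 5% mitochondrial UMIs, obese rats were higher than lean rats in each band without overlap. Between 5% and 15%, PST cells were 14.0%, 21.8%, 17.7% and 15.5% of proximal tubule cells in obese rats 1 to 4, against 7.24%, 10.1%, 6.80% and 11.01% in lean rats 1 to 4. There the log2 fold change was 0.97 ± 0.29 (SE, edgeR adjusted p = 0.0410), with 41.2% of 17 types called. Between 15% and 30% the mean was 26.7% ± 5.34 in 4 obese rats and 12.8% ± 6.11 in 3 lean rats (SD), at 1.06 ± 0.39 (edgeR adjusted p = 0.119), with 0% of 16 types called. From 30% upward it was 23.9% ± 9.19 in 4 obese rats and 9.94% ± 3.14 in 3 lean rats (SD), at 1.28 ± 0.45 (edgeR adjusted p = 0.0583), with 14.3% of 14 types called. The exact permutation tests of the log2 odds, adjusted over the mitochondrial bands, gave 0.171 in each of these 3 bands. Without lean rat 2 the difference of the log2 odds between 5% and 15% was 1.20 (exact permutation, adjusted p = 0.171), and 1.11 with it.

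Under 5% mitochondrial UMIs the groups overlapped. PST cells were 4.44%, 10.1%, 8.15% and 2.06% of such proximal tubule cells in obese rats 1 to 4, against 2.54%, 7.74%, 1.36% and 2.40% in lean rats 1 to 4. Its log2 fold change was 0.75 ± 0.65 (SE, edgeR adjusted p = 0.442), with 0% of 17 types called. The difference of the mean log2 odds was 0.92 (exact permutation p = 0.286, adjusted p = 0.429), and single rats moved it, to 1.42 without lean rat 2, 1.39 without obese rat 4, 0.58 without obese rat 2 and 0.56 without lean rat 3. This band held 2.84% to 5.97% of the PST cells of obese rats, against 70.7% of those of lean rat 2 and 6.22% to 10.47% of those of the other lean rats.

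Enalapril-treated obese rats lay apart from obese rats in 1 mitochondrial band. Between 15% and 30% mitochondrial UMIs the PST share was 6.96%, 14.7% and 17.1% in enalapril-treated obese rats 1 to 3, against 33.3%, 28.2%, 24.1% and 21.0% in obese rats 1 to 4, without overlap. At -1.04 ± 0.39 on the log2 scale the difference did not pass the test (edgeR adjusted p = 0.199). In the other bands the treated and obese rats overlapped, and under 5% the treated rats averaged 7.43% ± 4.59 (n = 3), against 6.18% ± 3.60 (n = 4) in obese rats (SD). The differences between bands were not tested.

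Bands of equal UMIs gave a further view at like depth. Between 1000 and 2000 UMIs, PST cells were 22.2% ± 5.04 of proximal tubule cells in 4 obese rats and 7.35% ± 2.43 in 3 lean rats (SD), a log2 fold change of 1.59 ± 0.29 (SE, edgeR adjusted p = 0.00670), with 6.25% of 16 types called. PST was the single type called. Between 2000 and 4000 UMIs the obese rats averaged 19.99% ± 4.27 and the 3 lean rats 6.85% ± 0.87, at 1.54 ± 0.27 (edgeR adjusted p = 0.00614), with 29.4% of 17 types called. From 4000 UMIs upward the obese rats averaged 20.03% ± 6.65 and the 3 lean rats 9.79% ± 1.20, at 1.01 ± 0.30 (edgeR adjusted p = 0.0354), with 26.7% of 15 types called. Between 500 and 1000 UMIs, where lean rat 2 took part, the means were 21.3% ± 6.10 in obese rats and 7.35% ± 3.21 in lean rats (SD, n = 4 each), at 1.53 ± 0.42 (edgeR adjusted p = 0.0667), with 0% of 16 types called. Obese and lean rats did not overlap in any of these 4 bands, and the exact permutation tests, adjusted over the UMI bands, gave 0.137 in each.

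Treated obese rats had lower mean PST shares than obese rats in each of the 4 bands, at 14.5% ± 6.60, 13.3% ± 2.24, 13.7% ± 3.98 and 10.9% ± 2.70 (SD, n = 3) from 500 UMIs upward. Their log2 fold changes against obese rats lay between -0.83 and -0.54, and edgeR adjusted p-values between 0.214 and 0.814. Under 500 UMIs only 1 rat of each group had 50 proximal tubule cells, and no comparison was made there.

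**Figure D3:**
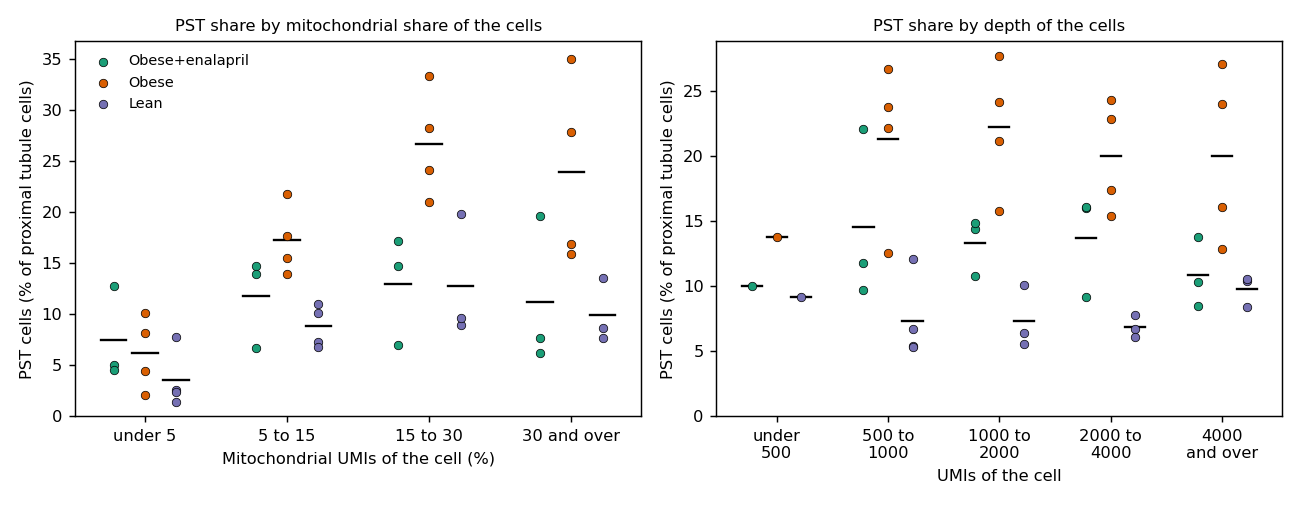
PST cells as a percent of proximal tubule cells within bands of mitochondrial percent and of UMIs per cell, with 1 point per rat and a line at the group mean. Obese rats lie above lean rats in every band that was tested except the one under 5% mitochondrial UMIs, where obese rats range from 2.06% to 10.1% and lean rats from 1.36% to 7.74%.

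The PST cells themselves were described by depth and mitochondrial content. Averaged over the 11 rats, PST cells had a median of 1902 ± 684 UMIs and 772 ± 234 genes (SD), each ranked 13 of the 18 types with enough cells. Their median mitochondrial percent was 17.5% ± 8.06 (SD), rank 5 of 18. PCT cells, at 16.1% ± 7.24, were close to it. PCT/PST cells had the lowest mitochondrial percent of the 18 types, at 3.67% ± 3.46, and DTL cells had 12.8% ± 5.70. The cells of the joint type thus did not lie between PCT and PST in this measure. Within a library, 35.1% to 90.9% of PCT/PST cells had under 5% mitochondrial UMIs, against 2.84% to 70.7% of PST cells.

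Median UMIs of PST cells were 1409, 2579 and 2642 in enalapril-treated obese rats 1 to 3 and 1598, 1526, 2453 and 2137 in obese rats 1 to 4. In lean rats 1 to 4 they were 1558, 392, 2541 and 2083. The groups overlapped. The log2 difference of obese against lean rats was 0.50 ± 0.59 (SE, limma adjusted p = 0.459), with 0% of 18 types called. Without lean rat 2 it was -0.10 ± 0.39 (limma adjusted p = 0.931). For treated obese against obese rats it was 0.17 ± 0.64 (limma adjusted p = 0.921), with 0% of 18 types called.

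Median genes per PST cell were 691, 1054 and 942 in enalapril-treated obese rats 1 to 3, 672 to 1016 in obese rats and 211 to 867 in lean rats. The log2 difference was 0.52 ± 0.46 for obese against lean rats (limma adjusted p = 0.443), with 0% of 18 types called, and 0.047 ± 0.30 without lean rat 2 (limma adjusted p = 0.991). For treated obese against obese rats it was 0.14 ± 0.50 (limma adjusted p = 0.942), with 0% of 18 types called.

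Since genes per cell follow UMIs per cell, cells of like depth were compared. Among PST cells with 500 to 1000 UMIs the median was 373 to 429 genes in obese rats, against 418.5, 277, 424 and 400 genes in lean rats 1 to 4. Depth was not fully matched here, since the 28 PST cells of lean rat 2 in this band had at most 757 UMIs. The log2 difference was 0.10 ± 0.12 (limma adjusted p = 0.861), with 0% of 13 types called, and -0.050 ± 0.093 without lean rat 2 (limma adjusted p = 0.829). Between 1000 and 2000 UMIs it was 613 to 713 genes in 4 obese rats and 560 to 653 genes in 3 lean rats, at 0.11 ± 0.08 (limma adjusted p = 0.626), with 6.67% of 15 types called.

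The median mitochondrial percent of PST cells was 5.11%, 14.6% and 27.9% in enalapril-treated obese rats 1 to 3, so these 3 rats spanned most of the range of the study. It was 27.3%, 24.0%, 18.0% and 19.98% in obese rats 1 to 4, against 17.7%, 2.21%, 18.8% and 17.4% in lean rats 1 to 4. The difference of obese against lean rats was 8.33 ± 5.10 percentage points (limma adjusted p = 0.391), with 5.56% of 18 types called, and 4.39 ± 4.66 points without lean rat 2 (limma adjusted p = 0.660). For treated obese against obese rats it was -6.46 ± 5.51 points (limma adjusted p = 0.694), with 0% of 18 types called. That value rested on single treated rats, at -1.08 points without treated rat 1 (limma adjusted p = 0.980) and -12.5 points without treated rat 3 (limma adjusted p = 0.156). The share of PST cells at or above 30% was 1.82%, 9.27% and 43.1% in treated obese rats 1 to 3, 40.3%, 36.6%, 14.7% and 19.0% in obese rats 1 to 4, and 21.5%, 0%, 24.9% and 18.3% in lean rats 1 to 4. Beyond the bands above, the PST shares were fitted with a mitochondrial covariate and with cuts on mitochondrial percent. The closing section gives these fits. For the share of all cells, the obese against lean call was lost with the covariate and with cells of at least 5% mitochondrial UMIs. What part of the PST differences goes with mitochondrial content was not tested further.

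Set against PCT cells of the same rat, PST cells had a median mitochondrial percent that was 4.16, -0.22, -0.67 and 0.09 points higher in obese rats 1 to 4, against 3.12, 0.76, 2.78 and 5.75 points in lean rats 1 to 4, where a negative value means lower in PST. The groups overlapped, at a difference of -2.26 points (exact permutation p = 0.229, adjusted p = 0.707 over 9 tests). The same comparison gave -0.14 for log2 UMIs (exact permutation p = 0.257, adjusted p = 0.707) and 0.06 for log2 genes (exact permutation p = 0.543, adjusted p = 0.707). Across PST cells of 1 library, Spearman's rho of UMIs with mitochondrial percent ran from -0.495 in enalapril-treated obese rat 1 to 0.0312 in lean rat 3, a description over cells of the same library.

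**Figure D4:**
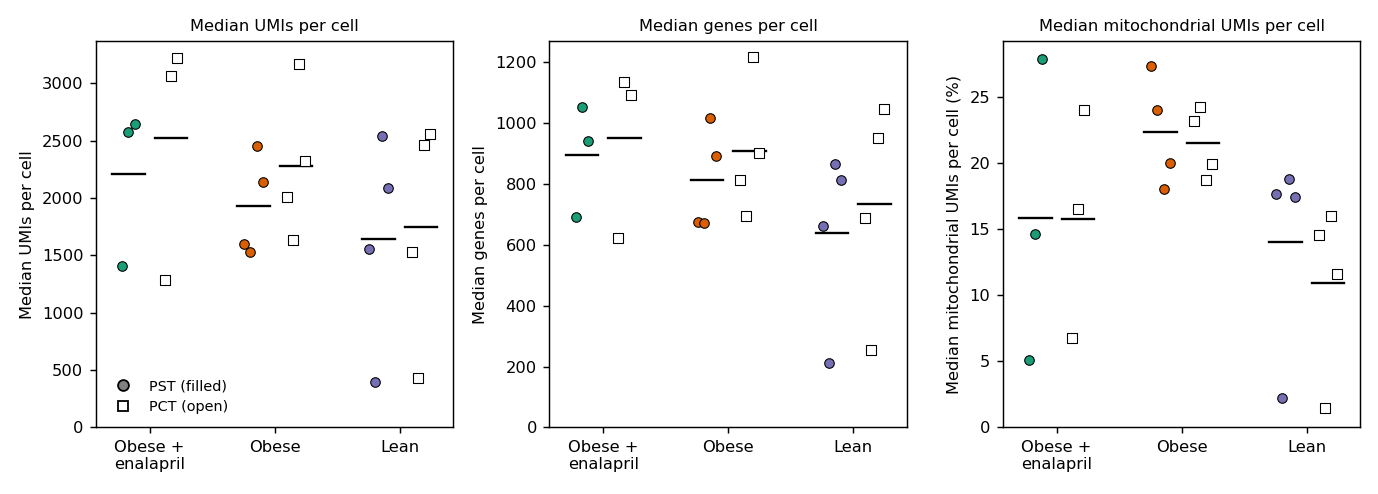
Median UMIs, genes and mitochondrial percent per cell in PST cells (filled circles) and PCT cells (open squares), with 1 point per rat and a line at the group mean. The PST values of the groups overlap in every panel, and the lowest lean point in each is lean rat 2, with 392 UMIs, 211 genes and 2.21% mitochondrial UMIs.

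The deposited cell cycle calls come from scores over sets of cycle genes, and they are given here as calls and scores only. The share of PST cells called S was 22.4%, 31.0% and 26.9% in enalapril-treated obese rats 1 to 3 and 25.7%, 29.98%, 26.2% and 31.3% in obese rats 1 to 4. In lean rats 1 to 4 it was 20.1%, 7.52%, 21.8% and 27.0%. The lowest value was that of the shallow library, lean rat 2. The difference of obese against lean rats was 9.21 ± 5.52 points (limma adjusted p = 0.575), with 0% of 18 types called, and 5.36 ± 3.38 points without lean rat 2 (limma adjusted p = 0.521). The share called G2M was 13.8%, 14.2%, 19.9% and 16.9% in obese rats 1 to 4, against 14.0%, 14.3%, 11.4% and 8.73% in lean rats 1 to 4. Its difference was 4.11 ± 2.37 points (limma adjusted p = 0.214), with 16.7% of 18 types called, and 4.84 ± 2.71 points without lean rat 2 (limma adjusted p = 0.230).

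The mean S score of PST cells differed by 0.0050 ± 0.0021 between obese and lean rats (limma adjusted p = 0.0964), with 0% of 18 types called, and by 0.0063 ± 0.0021 without lean rat 2 (limma adjusted p = 0.0913). The mean G2M score differed by 0.0031 ± 0.0041 (limma adjusted p = 0.742), with 0% of 18 types called. Without lean rat 2 the G2M difference was 0.0077 ± 0.0023 (limma adjusted p = 0.0377), so that this library decided whether it was called. Over cells with at least 1000 UMIs, which lean rat 2 lacks among its PST cells, the S difference was 0.0062 ± 0.0021 (limma adjusted p = 0.0936) and the G2M difference 0.0069 ± 0.0027 (limma adjusted p = 0.0718).

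On the authors' map, where cells of like expression lie close together, cells named PST lay mostly beside each other. Of the 15 nearest cells of each PST cell, 95.8% to 98.3% per rat were also named PST, 0.80% to 2.66% were named PCT and 0.14% to 1.60% were named PCT/PST. None was named DTL. Of the PST cells, 97.7% had at least 8 PST cells among the 15 and 89.1% had 15 of 15. A group of 92 cells (1.15%) had 0 PST neighbours. The share of PST neighbours was higher in obese than in lean rats by 0.81 points (exact permutation p = 0.143, adjusted p = 0.714) and lower in treated obese than in obese rats by 0.79 points (exact permutation p = 0.0571, adjusted p = 0.429). The names were drawn from the same data as the map, so this describes the naming and tests nothing.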

How the data were processed

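All values came from the authors' deposited per-cell table (114615 cells, 21 type names). Its UMI and gene totals are raw counts as deposited, judged from their whole-number values and the file headers. Mitochondrial content was deposited as a percent of UMIs. Cell cycle values were deposited as a score for S and for G2M, and map positions (a score without a unit, from the authors) served only to find nearest neighbours. Per the submitters' processing notes, the tools and build were Seurat 4.3.0, Cell Ranger 7.0.1 and rn6, with no roles given. For cell filters, doublets, free RNA and clustering, the settings are not given in the sources. The PST type, its neighbours and the tests were chosen with earlier results of these data known. The types named are PST, PCT, PCT/PST and DTL, and any other type only where a rank, count or setting concerns it.

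Cells of each type were counted per rat, and the rat was the replicate. Numbers were fitted with the robust quasi-likelihood test of edgeR 4.0.16, without an abundance trend, over all 11 rats, with all cells, the non-immune cells or the cells of the type's own compartment as the library size. Types with a mean under 10 cells per rat were left out. The immune cells were those named Mono, Macro, Mono/Macro, T cell and B cell. Medians per type and rat, from at least 20 cells, were fitted with limma 3.58.1, on the log2 scale for UMIs and genes. Log2 ratios, the log2 odds in bands (0.5 added to each count, at least 50 proximal tubule cells) and differences within rats went into exact permutation tests (two-sided), whose smallest p is 0.0286 with 4 against 4 rats and 0.0571 with 3 against 4. Adjustment was by Benjamini-Hochberg, with a threshold of 0.05, over the types of each contrast or the tests of a family. The edgeR tests within bands were added after the data were seen. SEs of edgeR values were obtained by dividing the log2 value by the root of F. Alternatives included DESeq2 1.42.0, limma on log2 odds, TMM, covariates, cuts on cells and each rat left out. The fits were checked on simulated counts. R 4.3.3 and Python 3.11.15 were used, with scipy 1.17.1, pandas 2.3.3, matplotlib 3.10.9 and numpy 2.4.6.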

Additional observations from a re-analysis of the deposited data

Results flagged for a closer look

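In groups of 4 rats, 37 sets of values were searched for a rat whose gap to the nearest other rat exceeded Dixon's 95% critical value of 0.829 of the group's range. Chance flags about 1 in 20 such sets, and 3 were flagged. The median mitochondrial percent of PST cells was 2.21% in lean rat 2, with the other lean rats between 17.4% and 18.8%. Among PST cells with 500 to 1000 UMIs, the median was 277 genes in lean rat 2, with the other lean rats between 400 and 424 genes. The 28 cells of lean rat 2 in this band had at most 757 UMIs, so depth was not matched within it. PCT cells of the band had a median of 342 genes in lean rat 2, against 424, 445 and 455 in lean rats 1, 3 and 4. The PST median mitochondrial percent exceeded that of PCT by 4.16 points in obese rat 1, with the other obese rats between -0.67 and 0.09 points.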

How the results depend on the processing

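Of 712 alternatives over 49 results, 650 kept both the direction and the side of the threshold, whatever the size of the move. Part of this count was fixed in advance. The exact permutation tests could not pass after adjustment under any setting. For these tests and for the medians, leaving out a rat outside the contrast repeats the same difference. The values of the alternatives that did not keep both direction and side are given next. Where no value or construction shows it, the cause was not tested. The PST share of the proximal tubule in obese against lean rats passed the threshold in all 21 alternatives, and that of non-immune cells in 21 of 22, the exception being PST merged with PCT/PST (0.70, adjusted p = 0.135). For the share of all cells this contrast lost the call when merged (0.30, adjusted p = 0.449), with cells of at least 1000 UMIs (1.12, adjusted p = 0.0676), with cells of at least 5% mitochondrial UMIs (1.23, adjusted p = 0.0808) and with a mitochondrial covariate (1.31, adjusted p = 0.0782). For treated obese against lean rats, the share of the proximal tubule was -0.031 when merged, 0.38 from 5% mitochondrial UMIs, 0.80 by limma, 0.77 with a UMI covariate and 0.66 with a mitochondrial covariate, all uncalled, and 0.60 to 0.84 with each rat left out, called in 2 of 11 such fits and in 6 of 21 alternatives. The share of non-immune cells was 0.38 when merged, 1.16 with TMM, 1.06 from 1000 UMIs, 0.84 from 5% mitochondrial UMIs, 1.24 by limma, 1.08 with either covariate and 1.11 without the filter on types, all uncalled, and 1.00 to 1.40 with each rat left out, called in 2 of 11 such fits and in 5 of 22 alternatives. The share of all cells was called by DESeq2 (1.03, adjusted p = 0.0495), and was 0.88 to 1.35 with each rat left out. For treated obese against obese rats, the share of all cells was 0.0067 when merged, the share of the proximal tubule was called by DESeq2 (-0.71, adjusted p = 0.0262) and was -0.85 to -0.59 with each rat left out, and its log2 odds under 5% mitochondrial UMIs were -0.15 to 0.69. The log2 PST to PCT ratio was called by limma (1.66 for obese against lean rats, -0.96 for treated obese against obese rats), and so was the PST to PCT/PST ratio (1.54 for obese against lean rats, 1.06 for treated obese against lean rats). For obese against lean rats, log2 UMIs were -0.017 from 1000 UMIs and -0.10 to 0.80 with each rat left out, log2 genes at 500 to 1000 UMIs were -0.033 from 50 cells and -0.050 to 0.15 with each rat left out, and the log2 PST to DTL ratio was -0.71 to 0.29. The labels give no pairing of rats by replicate number. Of the same-numbered pairs, 5 of 10 correlated above 0.1, with a range from -0.47 to 0.51. Pairs of different numbers ran from -0.57 to 0.51, so these values do not decide whether rats were paired. With the replicate number as a block, treated obese against lean rats gave 0.70 for the proximal tubule (adjusted p = 0.141) and 1.21 for all cells (adjusted p = 0.0382), and no other call for the shares changed; obese against lean rats gave 1.41 for the proximal tubule, 1.33 for all cells and 1.73 for non-immune cells. TMM was not run for shares of the proximal tubule, whose library size differs between types. With 3 or 4 rats a group, 133 PST cells in lean rat 2 and no gene values, small differences in depth, mitochondrial percent and calls of phase were not detectable.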
